A study of Mus musculus with 12 samples.

Results

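The 51 genes described here encode proteins that write, erase or read chromatin marks in mouse cells. They cover Polycomb repressive complexes 2 and 1 (PRC2 and PRC1), histone methyltransferases and demethylases, histone deacetylases and acetyltransferases, REST with its corepressors, and the enzymes that add or oxidise DNA methylation. They were chosen by gene symbol and matched to the Ensembl gene IDs of the deposited tables, with earlier results of these data known. All 51 of 51 were found among the 41388 genes of those tables, and all 51 passed the filter on low counts that left 14707 genes for testing.

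PRC2 deposits methyl groups on lysine 27 of histone H3, a mark that PRC1 reads through its chromodomain (Cbx) subunits, and both complexes keep developmental genes such as the Hox clusters silent in neurons. Class IIa histone deacetylases (Hdac4, Hdac5 and Hdac9 among the members) bind the transcription factor MEF2 and shuttle between nucleus and cytoplasm with neuronal activity. REST represses neuronal genes through RCOR and SIN3 corepressors, and the acetyltransferase CBP, encoded by Crebbp, is known for its interaction with mutant huntingtin.

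RNA was measured in 12 cultures of primary cortical neurons from Swiss Webster mouse embryos (embryonic day 16), all infected with a lentivirus on day 5 in vitro and collected on day 10. The 4 control libraries carried a vector labelled as empty in 3 of them and as control vector in the other. The 4 Htt-25Q libraries expressed huntingtin exon 1 with 25 glutamines, and the 4 Htt-72Q libraries the same exon with 72 glutamines, a length in the disease range. So every library was infected, none was an uninfected culture, and both huntingtin groups carried an exon 1 fragment and not the whole protein. Neither the vectors' promoter nor the species of the exon is given in the labels. The library descriptions begin with a preparation number, which is 22, 24, 26 and 27_1 in control 1 to 4 and in Htt-72Q 1 to 4, and 22, 24, 27_1 and 27 in Htt-25Q 1 to 4. The labels do not say what the number stands for or whether the cultures came from separate litters, so p-values measure only the spread between these libraries.

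Promoter sequences are given first for the 3 class IIa members, which fell together in Htt-72Q, and for Jarid2 and Phf1, PRC2 accessory subunits that moved in opposite directions. Each line holds the 250 bases before the RefSeq start site (GRCm38.p6) nearest to the start of the deposited gene, 5′ to 3′ on the gene's strand, and capitals mark CpG dinucleotides, the sites that Dnmt and Tet enzymes act on.
Hdac9: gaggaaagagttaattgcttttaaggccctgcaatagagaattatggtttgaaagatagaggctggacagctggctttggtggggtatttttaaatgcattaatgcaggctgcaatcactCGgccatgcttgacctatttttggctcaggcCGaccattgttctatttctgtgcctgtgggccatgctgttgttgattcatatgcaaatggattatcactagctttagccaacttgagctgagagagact
Hdac5: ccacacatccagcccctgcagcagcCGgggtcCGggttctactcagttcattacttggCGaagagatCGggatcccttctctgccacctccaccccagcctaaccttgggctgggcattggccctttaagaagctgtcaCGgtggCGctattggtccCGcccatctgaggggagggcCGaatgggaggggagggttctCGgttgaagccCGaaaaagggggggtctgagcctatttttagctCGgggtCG
Hdac4: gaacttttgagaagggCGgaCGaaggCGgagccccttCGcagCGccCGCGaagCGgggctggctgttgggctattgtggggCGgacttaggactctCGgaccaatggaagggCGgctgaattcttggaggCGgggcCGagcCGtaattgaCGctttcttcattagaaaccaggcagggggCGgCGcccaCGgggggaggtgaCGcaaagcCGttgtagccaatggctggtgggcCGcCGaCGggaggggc
Jarid2: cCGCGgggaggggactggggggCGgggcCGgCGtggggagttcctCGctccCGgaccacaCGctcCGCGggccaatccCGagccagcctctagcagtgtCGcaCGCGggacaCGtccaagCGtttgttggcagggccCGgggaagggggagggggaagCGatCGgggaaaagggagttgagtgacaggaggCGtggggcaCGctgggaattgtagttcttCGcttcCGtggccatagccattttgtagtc
Phf1: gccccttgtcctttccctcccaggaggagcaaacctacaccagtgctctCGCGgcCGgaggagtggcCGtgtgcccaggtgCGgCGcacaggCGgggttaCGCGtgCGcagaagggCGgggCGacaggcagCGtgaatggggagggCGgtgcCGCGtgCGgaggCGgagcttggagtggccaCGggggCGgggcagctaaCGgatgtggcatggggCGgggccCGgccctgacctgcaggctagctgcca
The windows lie at chr12:34528890-34529139 (minus strand) for Hdac9, chr11:102230173-102230422 (minus) for Hdac5, chr1:92180342-92180591 (minus) for Hdac4, chr13:44730524-44730773 (plus) for Jarid2 and chr17:26932877-26933126 (plus) for Phf1. The Hdac9 window holds 2 CpG sites, the Hdac5 window 12, and each of the other 3 holds 23. The start site is that of the deposited gene for Hdac9, Hdac4 and Phf1, 6 bases away for Hdac5 and 1300 bases away for Jarid2. Over windows of 300 bases (250 before and 50 after the start), 44 of the 51 genes matched RefSeq with 60 promoters, which held a median of 27.5 CpG sites beside 7 over all 32851 promoters. Promoters of members called higher in Htt-72Q held a median of 24 (15 to 37, 4 promoters of 3 genes). Those of members called lower held 20.5 (0 to 38, 10 promoters of 6 genes) and the others 30 (2 to 57, 46 promoters of 35 genes). These ranges overlapped and the medians were not tested. Both strands were searched for sequences to which E2F, CREB and REST are known to bind. Of the E2F sites, TTTCCCGC stood in the Phf19 and Suz12 promoters (1.07% of all promoters hold it) and TTTGGCGC in those of Dnmt1 and Ezh2 (0.514%). The cAMP response element TGACGTCA stood in the Cbx8 promoter (1.79%), the REST site element GGACAGCGC in that of Ep300 (0.405%) and TTCAGCACC in none of the 60 (0.371%). The Dnmt1 match lies in the promoter of another of its 3 RefSeq starts than the start nearest to the deposited gene.

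The libraries held 12.4 to 27.5 M counts. The mouse Htt gene was at 89.2 to 235 CPM (counts scaled to library size by the TMM method) in control, 124 to 182 in Htt-25Q and 128 to 213 in Htt-72Q, so the groups overlapped and these counts do not check the exon 1 labels. Pan-neuronal markers summed to 7004 to 7999 CPM in control, 6390 to 7521 in Htt-25Q and 5141 to 5398 in Htt-72Q, and astrocyte markers to 2423 to 3176 over the 12 libraries, so neuronal and glial RNA was present in every library. None of the markers on the 9 lists of cell markers was at 0 in all 12 libraries, and microglia markers summed to at most 25.2 and endothelial markers to at most 4.54 CPM. The libraries also split across the labels. In control 2 and 4, Htt-25Q 3 and Htt-72Q 1, 2 and 4, Gapdh stood at 35.4 to 50.2 CPM (by library total, without TMM scaling), against 9.16 to 20.3 in the other 6. A term for this split, set by the level of Ctnnd1, was called for 12 of 14707 genes and for 0 of the 51 members. With that term in the fit, 3 calls changed against Htt-25Q: Cbx8 (0.78, adjusted p = 0.0427) and Ezh2 (0.50, adjusted p = 0.0468) were called and Suv39h1 was not (0.37, adjusted p = 0.0560). Against control, Ehmt2 was called as well (-0.41, adjusted p = 0.0269). Mitochondrial ribosomal RNA took a mean share (± SD, n = 4) of 8.98 ± 3.54% of the counts for control, 10.7 ± 2.34% for Htt-25Q and 13.1 ± 1.83% for Htt-72Q libraries, and its part in the results was not tested. Control 1 and Htt-72Q 3 stood apart from their groups, with 6.20% and 9.41% of tested genes over 2-fold from the median of the group's other 3 libraries, against 0.605% to 2.56% elsewhere. Values without one or both are given beside the calls that they change and beside some of the differences that they move.

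Between Htt-72Q and the control vector, 4 of the 51 members rose (7.84%) and 6 fell (11.8%), and 41 did not pass the test (edgeR quasi-likelihood test, Benjamini-Hochberg adjusted p under 0.05 over all genes tested). Over all 14707 tested genes, 9.44% were called higher and 13.7% lower, so the shares among these regulators lie near the background of the comparison. The members' median log2 fold change was -0.05 (0.03 over all genes). Those that rose were Phf1, Cbx8, Pcgf1 and Suv39h1, and those that fell were Jarid2, Hdac3, Hdac4, Hdac5, Hdac9 and Dnmt1. The ranges of the 2 groups lay apart for 3 members above control (background 10.1%) and 7 below (13.6%), the latter including Kdm6a and Hdac2, which were not called. In bulk RNA, fewer cells of a type and less RNA per cell cannot be told apart, here and in all results that follow.

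Between Htt-72Q and Htt-25Q, which share an exon 1 and differ in glutamine length, 2 of 51 members rose (Phf1 and Suv39h1, 3.92%, background 9.07%) and 6 fell (Rbbp7, Jarid2, Hdac3, Hdac4, Hdac5 and Hdac9, 11.8%, background 13.4%). Ranges lay apart for 4 members above Htt-25Q (background 11.6%) and 6 below (15.1%). Both comparisons use the same 4 Htt-72Q libraries, so their values are set side by side. Between Htt-25Q and control, 0 of 51 members and 0 of 14707 genes were called (0% in both directions), also in DESeq2, in limma voom and in every other setting run. At an unadjusted p under 0.05 the edgeR test had 129 genes (0.88%) and 0 members, and the members' log2 fold changes ran from -0.57 to 0.44. With no difference, a share of about 0.05 of the genes would have such a p-value, so the test was strict in this comparison. The lack of calls therefore does not show that the groups are equal, and the reason for the low share was not tested.

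**Figure D1:**
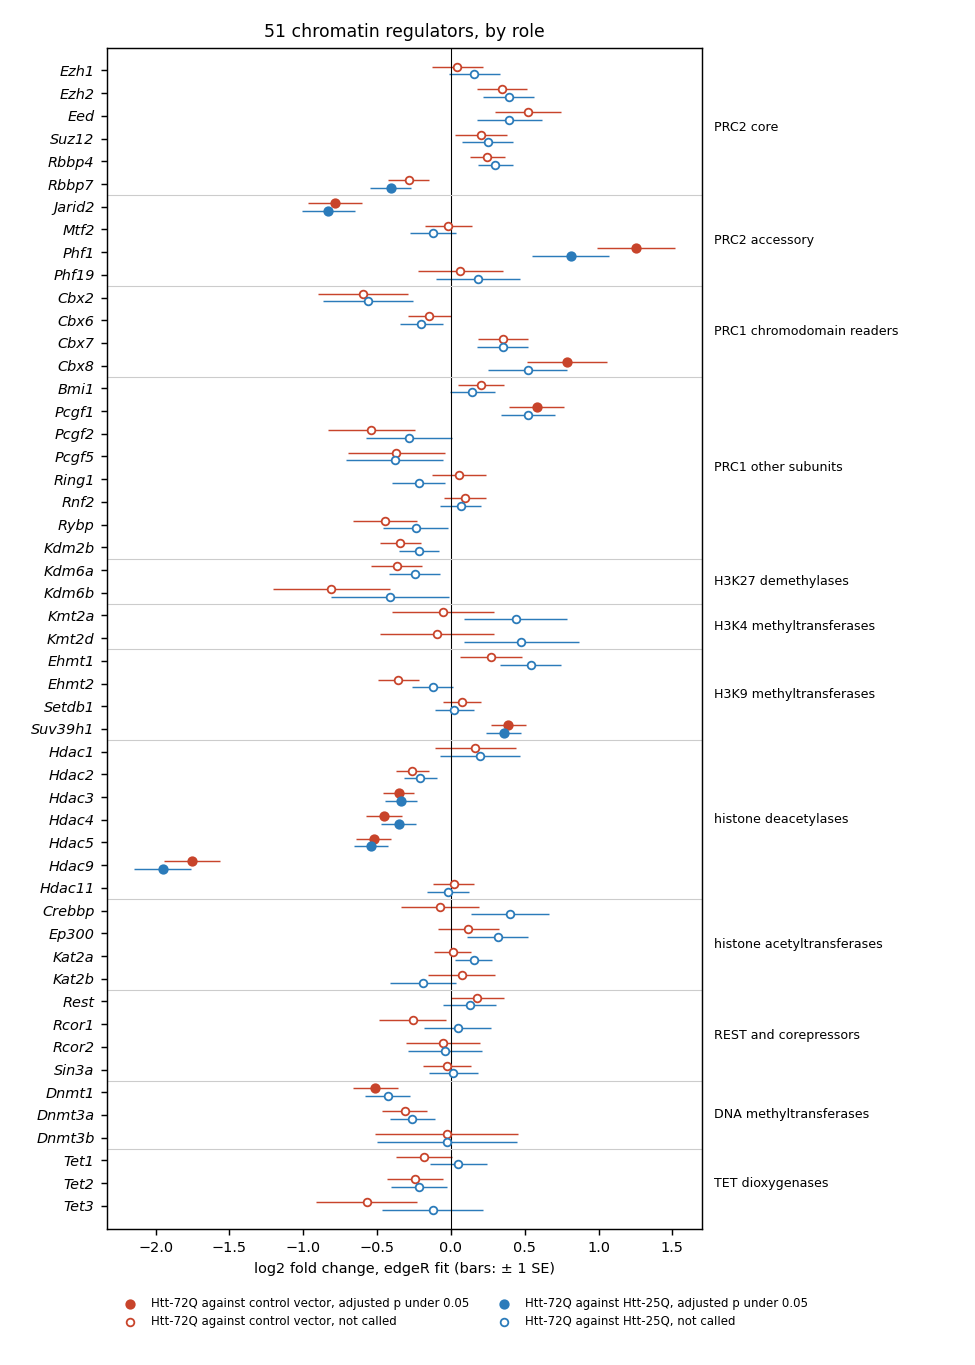
Log2 fold change of each of the 51 members in Htt-72Q against control vector (red) and against Htt-25Q (blue), with bars of 1 SE from the edgeR fit and filled points for adjusted p under 0.05; members are ordered by role. Hdac9 lies farthest to the left (-1.75 and -1.95) and Phf1 farthest to the right (1.25 and 0.81), and the deacetylases hold 4 filled points below 0 in both comparisons.

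Of the 7 histone deacetylases among the members, 4 fell against control (57.1%, background 13.7%) and the same 4 against Htt-25Q (57.1%, background 13.4%), and none rose. All 3 class IIa members were among them. Class IIa also holds Hdac7, which is not a member. Of Hdac6, Hdac7, Hdac8 and Hdac10, tested outside the members, none was called against control and only Hdac10 fell against Htt-25Q. The shares above therefore hold for the deacetylases chosen as members and not for all deacetylases. The calls of Hdac9 and Hdac5 were kept in all 13 alternatives run in both comparisons, those of Hdac3 in 8 of 13 in both, and that of Hdac4 in 12 of 13 against control and 3 of 13 against Htt-25Q. Hdac9, chr12:34371503-34528889, was at 103, 120, 135 and 150 CPM in control 1 to 4, at 107, 140, 160 and 178 in Htt-25Q 1 to 4 and at 27.8, 34.1, 43.0 and 46.0 in Htt-72Q 1 to 4. Every Htt-72Q library was below every other library, with no overlap. Its level was 3.37-fold lower than in control (log2 fold change -1.75 ± 0.19 SE, adjusted p = 1.73e-05) and 3.87-fold lower than in Htt-25Q (-1.95 ± 0.19, adjusted p = 7.28e-06). Within the preparations that both groups share, the log2 difference from control was -1.87, -1.80, -1.64 and -1.70. The deposited gene model of Hdac9 covers 30.1% of its exon bases in GENCODE M21 and 52.5% of its coding bases, the lowest coding share among the 51 members. It ends at chr12:34371503 on the 3′ side, whereas GENCODE continues to chr12:34047580, and it starts at the downstream of 2 RefSeq starts. The deacetylase domain lies in the C-terminal part of the protein, so these counts do not tell full-length Hdac9 from the short form without that domain.

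Hdac5, which leaves the nucleus when neurons are active, was at 127, 146, 143 and 129 CPM in control, at 130, 148, 137 and 135 in Htt-25Q and at 79.8, 95.4, 112 and 91.9 in Htt-72Q. Its highest Htt-72Q library was below the lowest of the other 8. Hdac5 fell against control (-0.52 ± 0.12, adjusted p = 0.00461) and against Htt-25Q (-0.54 ± 0.12, adjusted p = 0.00398). Hdac4, which is found largely outside the nucleus in neurons, was at 131, 114, 113 and 121 CPM in control, at 90.7, 107, 132 and 119 in Htt-25Q and at 83.3, 93.6, 86.1 and 87.7 in Htt-72Q. All Htt-72Q libraries lay below control, and Htt-72Q 2 lay above Htt-25Q 1. Hdac4 fell against control (-0.45 ± 0.12, adjusted p = 0.0142) and against Htt-25Q (-0.35 ± 0.12, adjusted p = 0.0473). The second of these calls is lost with preparation as a block (-0.30, adjusted p = 0.146) and when any one of 10 of the 12 libraries is left out (lowest effect -0.27, adjusted p = 0.149, without Htt-25Q 3; the 2 whose loss keeps it are control 1 and Htt-25Q 1). An antisense gene, Gm26720, overlaps 23.0% of the exon bases of Hdac4, and reads of the pair cannot be told apart because use of strand in counting is not given.

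Per exon length, the 3 class IIa members together stood at 52.1 ± 4.42 RPKM (CPM per kilobase of exon, with SD, n = 4) in control, 56.0 ± 8.10 in Htt-25Q and 25.03 ± 3.16 in Htt-72Q. Their order changed. Hdac9 made up 50.3% to 60.01% of this sum in the control libraries, 53.8% to 63.5% in Htt-25Q and 30.2% to 39.1% in Htt-72Q, whereas Hdac5 went from 26.1% to 32.4% in control to 39.4% to 45.5% in Htt-72Q. These shares rest on the partial gene model of Hdac9. Among class I deacetylases, Hdac3, the catalytic subunit of the NCoR and SMRT corepressor complexes, was at 124, 150, 123 and 148 CPM in control, at 137, 126, 147 and 130 in Htt-25Q and at 108, 109, 112 and 98.1 in Htt-72Q. No Htt-72Q library reached the lowest of the other groups. Hdac3 fell against control (-0.35 ± 0.11, adjusted p = 0.0271) and against Htt-25Q (-0.34 ± 0.11, adjusted p = 0.0348). The first call is lost without control 2 (adjusted p = 0.0727), control 4 (0.0674) or Htt-72Q 4 (0.0806), and with totals-only scaling (-0.27, adjusted p = 0.0851). The second is lost with the preparation block (-0.34, adjusted p = 0.0772) and without Htt-25Q 1, 3 or 4 or Htt-72Q 1, 2 or 4 (adjusted p = 0.0593 to 0.1099).

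Hdac2, a class I deacetylase, was at 141 to 167 CPM in control, 127 to 170 in Htt-25Q and 125 to 133 in Htt-72Q. The control and Htt-72Q ranges lay apart, but the difference did not pass the test (-0.26 ± 0.11, adjusted p = 0.106). Hdac11, the class IV enzyme, stood at 31.1, 31.9 and 31.5 RPKM in control, Htt-25Q and Htt-72Q, with overlapping ranges and adjusted p above 0.05. Hdac1 was low, at 0.568, 0.555 and 0.637 RPKM. Processed pseudogenes match about 71.0% of its longest transcript (Gm10093 at 99.4% identity), and how multi-mapping reads were counted is not stated, so its level is uncertain.

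**Figure D2:**
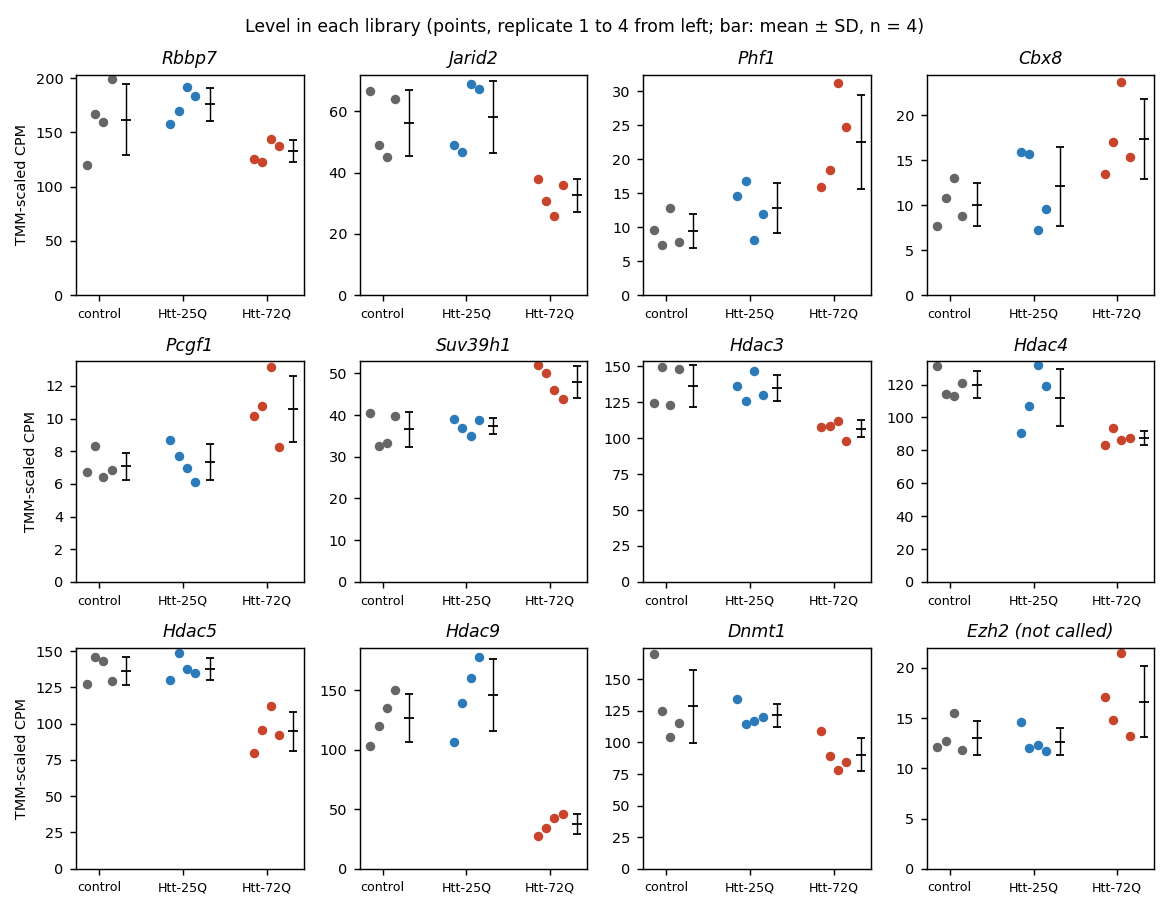
TMM-scaled CPM in each library for the 11 members called in either Htt-72Q comparison and for Ezh2 (not called); points are libraries 1 to 4 of each group from left to right, and the bar beside them is the mean ± SD (n = 4). The Htt-72Q points of Hdac9 (27.8 to 46.0) lie under all others (103 to 178), and those of Phf1 (15.9 to 31.2) overlap Htt-25Q (8.16 to 16.8).

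Among the 4 accessory subunits that steer PRC2 to chromatin, Jarid2 fell and Phf1 rose in both comparisons. Jarid2, which recruits PRC2 and modulates its activity, was at 66.7, 49.0, 45.2 and 64.0 CPM in control, at 49.0, 46.7, 69.0 and 67.4 in Htt-25Q and at 37.8, 30.6, 25.9 and 36.1 in Htt-72Q. The Htt-72Q libraries lay under all 8 others. The log2 fold change was -0.78 ± 0.18 against control (adjusted p = 0.00601) and -0.83 ± 0.18 against Htt-25Q (adjusted p = 0.00429). Within the 4 preparations it was -0.81, -0.67, -0.79 and -0.82 against control. Against Htt-25Q it varied more, at -0.37, -0.60 and -0.93 in 22, 24 and 27_1. Phf1, a Tudor-domain protein that binds methylated lysine 36 of histone H3, was at 9.56, 7.42, 12.8 and 7.87 CPM in control, at 14.6, 16.8, 8.16 and 11.96 in Htt-25Q and at 15.9, 18.4, 31.2 and 24.7 in Htt-72Q. All Htt-72Q libraries lay above control, and Htt-72Q 1 lay below Htt-25Q 2. Phf1 rose 2.38-fold against control (1.25 ± 0.26, adjusted p = 0.00337) and 1.75-fold against Htt-25Q (0.81 ± 0.26, adjusted p = 0.0366).

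The Phf1 difference from Htt-25Q varied between preparations, at 0.12, 0.13 and 1.54 in 22, 24 and 27_1. It was not called with preparation as a block (0.61, adjusted p = 0.101), or without Htt-25Q 1, 3 or 4 or Htt-72Q 3 or 4 (0.61 to 0.87, adjusted p = 0.0531 to 0.113). The Htt-72Q and Htt-25Q libraries of 22 and 24 lay on opposite sides of the library split, and those of 27_1 on the same side. With the term for that split the difference was called (1.15 ± 0.19, adjusted p = 0.000956). It was also called with 27 and 27_1 joined in the block (0.62, adjusted p = 0.0458). The part of the split was not tested. Against control it was called in each of these settings. In the sum of the 4 accessory subunits per length, Jarid2 made up 28.1% to 42.7% in control and 11.8% to 24.9% in Htt-72Q, and Phf1 20.98% to 31.8% in control and 41.9% to 57.1% in Htt-72Q. Htt-25Q lay between 26.2% and 45.0% for Jarid2 and between 21.3% and 37.6% for Phf1. The other Polycomb-like proteins, Mtf2 and Phf19, were not called (adjusted p = 0.951 and 0.9 against control), with Mtf2 at 5.34, 5.74 and 5.28 RPKM and Phf19 at 0.474, 0.432 and 0.489.

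Of the 6 PRC2 core genes, none was called against control and 1, Rbbp7, fell against Htt-25Q. Ezh2, the catalytic subunit of dividing cells, was at 12.2, 12.7, 15.5 and 11.8 CPM in control, at 14.6, 12.1, 12.3 and 11.7 in Htt-25Q and at 17.1, 14.8, 21.4 and 13.3 in Htt-72Q. The groups overlapped (0.35 ± 0.17, adjusted p = 0.168 against control). Its paralogue Ezh1, typical of cells that no longer divide, was the more abundant per length, at 61.8% to 73.1% of the pair in control and 51.6% to 70.5% in Htt-72Q, and its level differed by 0.04 ± 0.17 (adjusted p = 0.886). Eed, which binds the H3K27 methyl mark, was at 7.002 to 10.8 CPM in control, 9.18 to 10.7 in Htt-25Q and 9.59 to 19.8 in Htt-72Q, where the highest value was Htt-72Q 3. Its difference from control was not called (0.52 ± 0.22, adjusted p = 0.106) but was with preparation as a block (0.48, adjusted p = 0.0339). Without Htt-72Q 3 it was 0.24 (adjusted p = 0.355). Suz12, the scaffold subunit, was at 14.7 to 19.9, 14.97 to 19.8 and 16.1 to 26.3 CPM and was not called (0.21 ± 0.18, adjusted p = 0.434).

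The histone-binding subunits Rbbp4 and Rbbp7 also serve deacetylase complexes. Rbbp7 was at 120, 167, 160 and 199 CPM in control, at 158, 170, 192 and 183 in Htt-25Q and at 126, 122, 144 and 138 in Htt-72Q. All Htt-72Q libraries lay below Htt-25Q, and control 1 lay below all of them. Rbbp7 fell against Htt-25Q (-0.41 ± 0.14, adjusted p = 0.0494). This call, at the edge of the threshold, is lost when any one of 10 libraries is left out (adjusted p up to 0.127, without Htt-72Q 2) and kept without control 1 or control 4. Against control it was not called with all libraries (-0.29 ± 0.14, adjusted p = 0.16) and was called without control 1 (-0.41, adjusted p = 0.0207). A processed pseudogene, Gm6382, matches 42.0% of its transcript at 97.1% identity. Rbbp4 was at 123 to 167, 132 to 146 and 151 to 194 CPM. It lay above all Htt-25Q libraries in Htt-72Q but was not called (0.30 ± 0.12, adjusted p = 0.0833). Without control 1 this difference was called (0.30, adjusted p = 0.0480).

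Of the 4 chromodomain readers of PRC1, Cbx8 rose against control. It was at 7.62, 10.8, 13.0 and 8.76 CPM in control, at 15.9, 15.7, 7.18 and 9.57 in Htt-25Q and at 13.5, 17.0, 23.7 and 15.4 in Htt-72Q. The Htt-72Q range began above the highest control and overlapped Htt-25Q, where libraries 1 and 2 stood above Htt-72Q 1 and 4. Cbx8 rose 1.73-fold against control (0.79 ± 0.27, adjusted p = 0.0476) and its difference from Htt-25Q was 0.52 ± 0.27 (adjusted p = 0.186). Within the 4 preparations the difference from control was 0.78, 0.64, 0.84 and 0.78. That from Htt-25Q was uneven, at -0.24, 0.11 and 1.05 in 22, 24 and 27_1. The call is lost in limma voom (adjusted p = 0.0593), and without control 1, 2 or 4, Htt-25Q 4 or Htt-72Q 2, 3 or 4 (adjusted p = 0.0563 to 0.142, the last without Htt-72Q 3 at 0.60). Without both control 1 and Htt-72Q 3 the difference was 0.49 (adjusted p = 0.241). Cbx6 was the most abundant reader in neurons, at 85.0% to 86.4% of the 4 per length in control and 77.7% to 82.8% in Htt-72Q, and was not called (-0.15, adjusted p = 0.507). Cbx2 (-0.60 ± 0.30, adjusted p = 0.178; -0.35 without Htt-72Q 3) and Cbx7 (0.35 ± 0.17, adjusted p = 0.157) were not called either. Every Htt-72Q library of Cbx7 lay above Htt-25Q, at 8.13 to 10.4 against 6.29 to 7.80 CPM.

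Of the other 8 PRC1 genes, Pcgf1 rose against control and the other 7 were not called. Pcgf1, which defines the variant complex that also holds Kdm2b, was at 6.74, 8.31, 6.41 and 6.83 CPM in control, at 8.71, 7.68, 6.96 and 6.09 in Htt-25Q and at 10.2, 10.8, 13.2 and 8.27 in Htt-72Q. Only Htt-72Q 4 fell within the ranges of the other groups. Its difference from control was 0.58 ± 0.19 (adjusted p = 0.0349) and that from Htt-25Q 0.52 ± 0.18 (adjusted p = 0.0552). The call is lost without control 1, 3 or 4 or Htt-72Q 1, 2 or 3 (0.46 to 0.58, adjusted p = 0.0607 to 0.0930), and a pseudogene, Gm8930, matches 83.2% of its transcript at 97.5% identity. Without both control 1 and Htt-72Q 3 the difference was 0.43 (adjusted p = 0.118). The E3 ligase Rnf2 made up 85.5% to 88.4% of the Ring1 and Rnf2 pair per length in control, and its CPM range was 72.4 to 99.9 in control, 67.7 to 93.9 in Htt-25Q and 77.0 to 103 in Htt-72Q (0.09, adjusted p = 0.671). Bmi1, the subunit of canonical PRC1, was at 11.8, 12.3 and 13.6 RPKM (0.20, adjusted p = 0.372). Kdm2b, which brings PRC1 to unmethylated CpG islands, was at 62.4 to 89.9 CPM in control and 49.2 to 69.2 in Htt-72Q; the difference was not called (-0.34 ± 0.14, adjusted p = 0.0893) but was with the preparation block (-0.34, adjusted p = 0.0475).

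**Figure D3:**
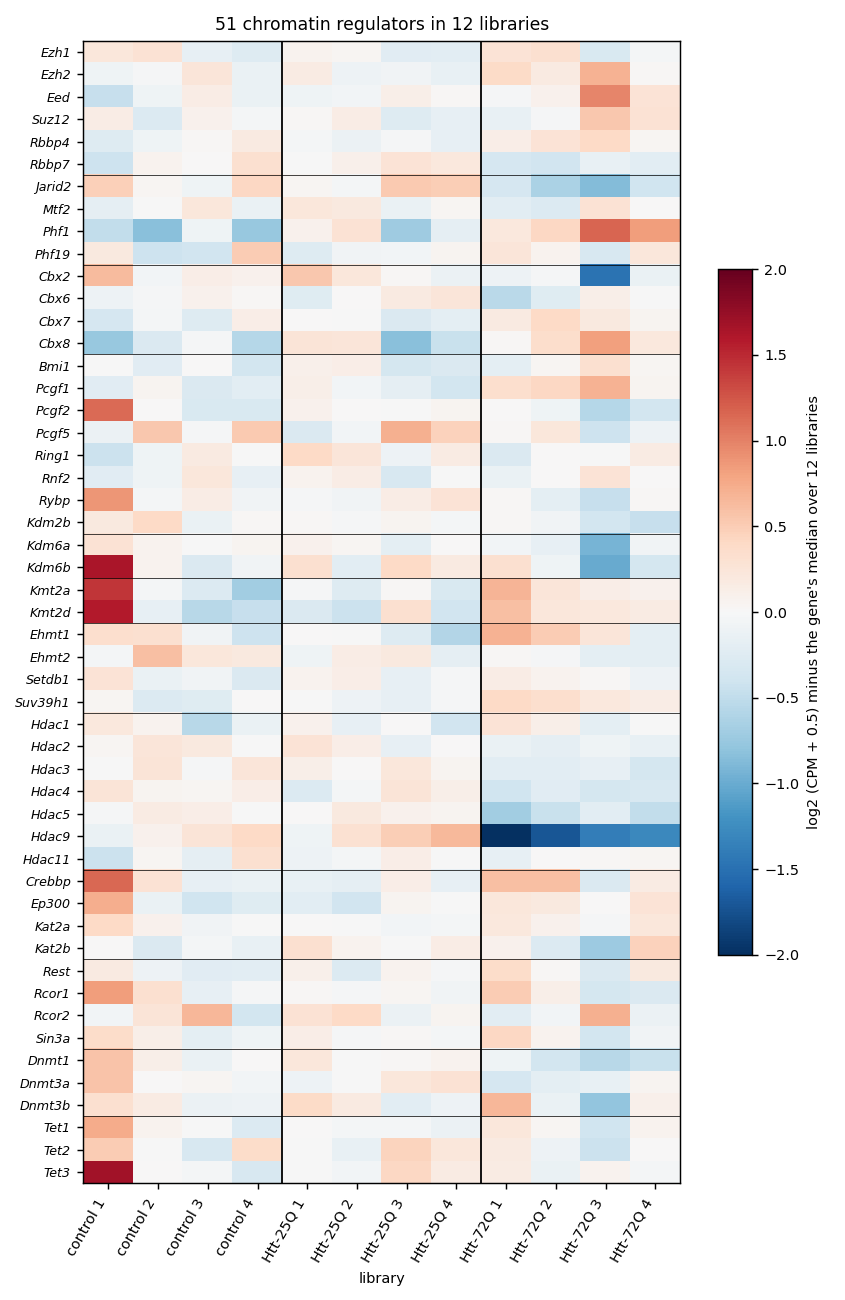
Each of the 51 members (rows, by role) in each of the 12 libraries (columns); colour is log2 (CPM + 0.5) minus the gene's median over the 12 libraries, red above and blue below. Hdac9 is the bluest row across all 4 Htt-72Q libraries, and control 1 is red for Kmt2d, Kmt2a, Kdm6b, Tet3 and Pcgf2.

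Results for the H3K4 methyltransferases depended on 1 library, control 1. Its level exceeded the median of control 2 to 4 by 4.14 times for Kmt2d, 3.38 for Kdm6b, 3.32 for Tet3, 3.29 for Kmt2a, 2.83 for Pcgf2 and 2.43 for Crebbp. Pcgf2 in Htt-72Q differed from control by -0.54 with all libraries and by -0.04 without control 1, and was called in neither fit. Over the 51 members, this excess went with exon length (Spearman's rho 0.542 across genes, which are not independent replicates; 0.445 over all tested genes), and its cause was not tested. Kmt2a, a trithorax-type H3K4 methyltransferase, was at 143, 51.1, 43.5 and 32.5 CPM in control, at 51.8, 44.2, 53.8 and 42.7 in Htt-25Q and at 85.0, 62.3, 57.7 and 56.0 in Htt-72Q. The Htt-72Q libraries lay above all others except control 1. Kmt2d, which makes H3K4 methylation at enhancers, was at 160, 47.5, 36.0 and 38.7 CPM in control, 43.4, 39.3, 66.6 and 40.8 in Htt-25Q and 81.2, 62.6, 61.5 and 59.6 in Htt-72Q. Only control 1 and Htt-25Q 3 reached the Htt-72Q range. With all libraries neither was called against control (-0.05 ± 0.35, adjusted p = 0.93; -0.10 ± 0.39, adjusted p = 0.885). Without control 1 the direction turned and both were called, Kmt2a at 0.62 (adjusted p = 0.0253) and Kmt2d at 0.70 (adjusted p = 0.0190).

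The H3K27 demethylase Kdm6a was at 52.0, 44.6, 41.9 and 43.9 CPM in control, 44.7, 43.2, 37.0 and 42.7 in Htt-25Q and 40.9, 37.9, 22.0 and 40.3 in Htt-72Q. The Htt-72Q range lay below control, and Htt-72Q 3 was far below the other libraries. It was not called (-0.37 ± 0.17, adjusted p = 0.143) except with the preparation block (-0.40, adjusted p = 0.0482), and without Htt-72Q 3 it differed by -0.20 (adjusted p = 0.274). Kdm6b, its activity-induced paralogue, was at 32.0 CPM in control 1 and 8.07 to 10.53 in the other controls, at 8.61 to 13.3 in Htt-25Q and 4.70 to 12.6 in Htt-72Q, and was not called (-0.81 ± 0.40, adjusted p = 0.163). Its difference within the 4 preparations was -1.31, -0.15, -0.72 and -0.29, and it was called with preparations 27 and 27_1 joined in the block (-0.70, adjusted p = 0.0397). Without control 1 it was -0.12 (adjusted p = 0.802).

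Of the 4 H3K9 methyltransferases, Suv39h1 rose in both comparisons. Suv39h1, which trimethylates H3K9 in constitutive heterochromatin, was at 40.6, 32.6, 33.4 and 39.8 CPM in control, at 39.0, 36.9, 34.9 and 38.7 in Htt-25Q and at 51.9, 50.1, 45.9 and 43.7 in Htt-72Q. The lowest Htt-72Q library was above the highest of the other 8. The changes were small (0.39 ± 0.12, adjusted p = 0.0296 against control; 0.36 ± 0.12, adjusted p = 0.0442 against Htt-25Q). The first call is lost without control 2 or 3, Htt-25Q 4 or Htt-72Q 1 or 2 (0.32 to 0.37, adjusted p = 0.0557 to 0.117) and in a fit of only these 2 groups (adjusted p = 0.0884). The second is lost when any one of 9 libraries is left out (0.31 to 0.38, adjusted p = 0.0519 to 0.119); it holds without control 1, control 4 or Htt-72Q 4. An antisense gene, Gm14820, overlaps 14.6% of its exon bases. Ehmt1, a euchromatic H3K9 methyltransferase, was at 177, 174, 132 and 105 CPM in control, 141, 139, 116 and 93.0 in Htt-25Q and 226, 198, 165 and 121 in Htt-72Q. In preparations 22, 24 and 27_1 alike, the Htt-72Q library was the highest of the 3. It was not called (0.54 ± 0.21, adjusted p = 0.078 against Htt-25Q) but was with the preparation block (0.42, adjusted p = 0.0401). Ehmt2 (-0.36 ± 0.14, adjusted p = 0.0827) and Setdb1 (0.08) were not called against control, and Ehmt2 was without control 1 (-0.45, adjusted p = 0.0267) and with preparations 27 and 27_1 joined in the block (-0.34, adjusted p = 0.0459).

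None of the 4 acetyltransferases was called. Crebbp was at 216, 119, 87.3 and 89.1 CPM in control, 88.1, 86.0, 107 and 86.8 in Htt-25Q and 148, 148, 79.9 and 110 in Htt-72Q, with overlap of all 3 groups (-0.08, adjusted p = 0.865 against control; 0.40, adjusted p = 0.31 against Htt-25Q). Without control 1 its difference from control was 0.30 (adjusted p = 0.310). Without control 1 and Htt-72Q 3 it was called above Htt-25Q (0.55, adjusted p = 0.0148). Ep300, which encodes its paralogue p300, was at 109, 59.5, 49.7 and 55.4 CPM in control, 56.3, 50.1, 67.6 and 64.7 in Htt-25Q and 76.5, 75.2, 66.1 and 79.2 in Htt-72Q. All Htt-72Q libraries but Htt-72Q 3 lay above Htt-25Q, and all lay above control 2 to 4. Its difference from control was 0.12 (adjusted p = 0.727) with all libraries and 0.44 (adjusted p = 0.0274) without control 1. The Ep300 difference from Htt-25Q was 0.32 (adjusted p = 0.307) with all libraries. Without control 1 and Htt-72Q 3 it was called (0.37, adjusted p = 0.0380). Kat2a and Kat2b, GCN5-type enzymes, differed from control by 0.01 and 0.07, and neither was called.

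None of REST and its 3 corepressor genes was called. Rest, whose protein is low in neurons, stood at 9.69 to 13.1 CPM in control, 9.40 to 12.3 in Htt-25Q and 9.25 to 14.97 in Htt-72Q, with overlap of all groups. The difference from control was 0.18 (adjusted p = 0.507) and that from Htt-25Q 0.13 (adjusted p = 0.66). Rcor1, Rcor2 and Sin3a differed from control by -0.26, -0.05 and -0.03 and from Htt-25Q by 0.04, -0.04 and 0.02. RNA levels do not show where the protein is in the cell or what it binds.

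Of the 6 genes that act on DNA methylation, Dnmt1, the maintenance methyltransferase, fell against control. It was at 170, 125, 104 and 116 CPM in control, at 134, 114, 117 and 120 in Htt-25Q and at 109, 89.2, 78.4 and 84.5 in Htt-72Q. All Htt-72Q libraries lay below Htt-25Q, while Htt-72Q 1 lay above control 3. Dnmt1 fell against control (-0.51 ± 0.15, adjusted p = 0.0243). The difference from Htt-25Q was not called (-0.43 ± 0.15, adjusted p = 0.0558) but was with the preparation block (-0.36, adjusted p = 0.0406). That difference was also called without control 1 (-0.43, adjusted p = 0.0142) and without both control 1 and Htt-72Q 3 (-0.37, adjusted p = 0.0321). The call against control is lost without control 1 (-0.35, adjusted p = 0.0596), Htt-72Q 2 (-0.53, 0.0548), Htt-72Q 3 (-0.46, 0.0637) or Htt-72Q 4 (-0.47, 0.0663), and without both control 1 and Htt-72Q 3 (-0.29, 0.1099). Within the 4 preparations its difference from control was -0.64, -0.48, -0.41 and -0.45. Dnmt3a, the de novo enzyme that is abundant in neurons, was at 203 to 316 CPM in control (316 in control 1, at most 218 in the others), 197 to 260 in Htt-25Q and 169 to 220 in Htt-72Q, and was not called (-0.31, adjusted p = 0.155; -0.15, adjusted p = 0.435 without control 1). Dnmt3b was near the filter, at 0.159 to 1.31 CPM over the 12 libraries. The dioxygenases Tet1, Tet2 and Tet3 differed from control by -0.18, -0.24 and -0.57 and none was called. Tet3 was at 178 CPM in control 1 and at 44.1 to 73.7 in the other 11 libraries. Within preparations 22, 24, 26 and 27_1 it differed from control by -1.52, -0.13, 0.10 and 0.28, and without control 1 the direction turned (0.13, adjusted p = 0.556).

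**Figure D4:**
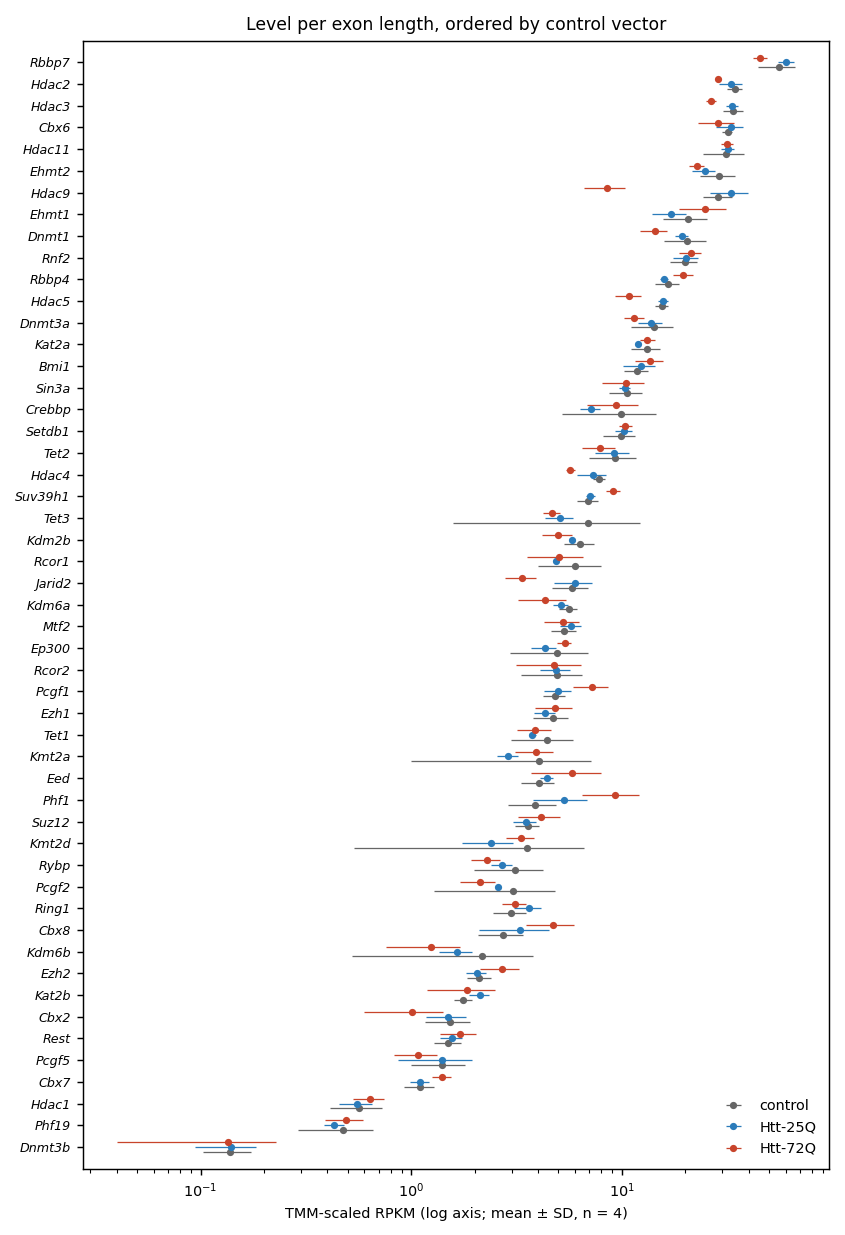
Mean level per exon length (TMM-scaled RPKM, log axis; bars are SD, n = 4) of the 51 members in control (grey), Htt-25Q (blue) and Htt-72Q (red), ordered by the control level. Rbbp7 is the highest (55.5 RPKM in control) and Dnmt3b the lowest (0.138), and the Htt-72Q point of Hdac9 (8.52) lies far to the left of its other points (28.7 and 33.0).

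Further genes of the same pathways were read against the same backgrounds, 9.44% higher and 13.7% lower against control and 9.07% and 13.4% against Htt-25Q. Of 18 further Polycomb genes, 2 fell against control, the PRC1.1 corepressor Bcor (-1.17 ± 0.33, adjusted p = 0.0200) and Pcgf3 (-0.41 ± 0.12, adjusted p = 0.0262). Against Htt-25Q, Bcor fell (-1.50 ± 0.33, adjusted p = 0.00485) and Phc3 rose (0.64 ± 0.20, adjusted p = 0.0363). Of 28 tested histone methylation genes, 2 rose against both groups: the H3K4 demethylase Kdm5a (0.60 ± 0.12, adjusted p = 0.00224 against control) and the H3K36 demethylase Kdm2a (0.37 ± 0.13, adjusted p = 0.0472). Of 24 acetylation genes, Sap30, a subunit of SIN3 complexes, and the deacylase Sirt6 rose against both groups (0.65 ± 0.20 and 0.57 ± 0.19 against control), and Hdac10 fell against Htt-25Q (-0.56 ± 0.16). Of 12 tested DNA methylation genes none was called in either comparison, and 1 had an unadjusted p under 0.05 against control and 0 against Htt-25Q.

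The Hox genes, classical targets of Polycomb repression, were near 0 in the 8 other libraries: 39 genes summed to 0.538 to 1.01 CPM in control, 0.433 to 1.26 in Htt-25Q and 6.63 to 42.8 in Htt-72Q. The lowest Htt-72Q library exceeded all others. Of the 39, 2 passed the filter, Hoxd8 and Hoxb13, through the Htt-72Q libraries alone, so their direction follows from the filter and is not given as a result. At 0 in all 12 libraries were 12 of the 39. Markers of excitatory neurons summed to 1094 to 1395 CPM in control, 1140 to 1688 in Htt-25Q and 510 to 749 in Htt-72Q, where 7 of 10 fell against control (background 13.7%), and those of inhibitory neurons to 308 to 377, 278 to 412 and 160 to 242, where 5 of 10 fell. Astrocyte markers had 0 of 8 called, and progenitor markers summed to 584 to 780, 682 to 769 and 711 to 1037. Proliferation genes summed to 383 to 456, 405 to 482 and 491 to 560 CPM. Against control, 7 of 26 rose (26.9%, background 9.44%) and 1 fell. Against Htt-25Q, 3 of 26 rose (11.5%, near the background of 9.07%) and 1 fell. These levels moved with the falls of Hdac9, Hdac5, Hdac4, Hdac3, Jarid2, Dnmt1 and Rbbp7 and the rises of Phf1, Cbx8, Pcgf1 and Suv39h1, and their part in those results was not tested.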

How the data were processed

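RNA of 12 cultures was sequenced as total RNA after removal of ribosomal RNA, 1 library per culture. The authors deposited, per the file headers, gene counts, CPM (counts scaled to library size) and RPKM (the same, divided by exon length); the deposited CPM and RPKM follow from the counts to within 5.24e-10, so counts were used, and CPM and RPKM were recomputed with TMM scaling. Per the submitters' processing notes, the tools were STAR 2.0.4b, Subread and featureCounts 1.45 on GRCm38. Their roles and settings, the annotation release and whether strand was used were not given in the sources used here. Each file held 41388 genes.

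Counts were tested with edgeR 4.0.16 (R 4.3.3; quasi-likelihood, TMM, filterByExpr with a minimum count of 10, 1 fit of 3 groups with 9 residual degrees of freedom), two-sided, with Benjamini-Hochberg adjustment over 14707 genes; SE is the log2 fold change over the square root of F. Groups came from the titles. Libraries differed beyond counting error (smallest chi-square per degree of freedom 8.31), so none was a duplicate. Simulated for Htt-72Q against control on 14540 genes, the test recovered 3.08% of 1.5-fold, 48.6% of 2-fold and 92.3% of 4-fold changes, with 5 false among 101 calls. The simulation planted 65, 70 and 65 such changes, whereas the data had 1389 genes called higher and 2022 lower. Benjamini-Hochberg adjustment is stricter where fewer genes change, so these shares do not describe recovery in the data. Preparation numbers were taken to pair libraries: residuals correlated above 0.1 in 10 of 10 same-numbered pairs (median r 0.282), so blocked values stand beside results whose call they change. Promoters came from RefSeq, gene copies from GENCODE M21 transcripts aligned with minimap2 2.31-r1302.

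Named genes are the called members, the defining complex members and at most 3 called genes per further list. Kmt2a, Kmt2d, Kdm6a, Kdm6b, Kdm2b, Ehmt1, Ehmt2, Tet3 and further members outside that rule were given values after these were seen. The members, lists and alternatives were chosen with earlier results of these data known. Alternatives were DESeq2 1.42.0, limma voom 3.58.1, other scaling, filters, thresholds, fits of 2 groups, blocks, a term for the library split and leaving out each library. Leaving out control 1 and Htt-72Q 3 together was chosen after seeing the data.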

Additional observations from a re-analysis of the deposited data

Results flagged for a closer look

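In groups of 4 libraries, 13 of the 153 combinations of member and group held a library whose gap to the nearest other, as a share of the group's range, exceeded Dixon's 95% critical value; chance marks about 1 in 20 groups. Control 1 was the highest of its group in 7 of them. It stood at 20.04 CPM for Pcgf2 (others 7.06 to 8.85), 32.0 for Kdm6b (8.07 to 10.53), 143 for Kmt2a (32.5 to 51.1) and 160 for Kmt2d (36.0 to 47.5). It also stood at 109 CPM for Ep300 (49.7 to 59.5), 315.5 for Dnmt3a (203 to 218) and 178 for Tet3 (44.1 to 55.1). Over all tested genes, control 1 was marked in 4.43%.

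Htt-72Q 3 was marked for 3 members and in 4.08% of all tested genes. It was the lowest of its group for Cbx2, at 1.67 CPM (others 4.98 to 5.39), and for Kdm6a, at 22.0 CPM (37.9 to 40.9), and the highest for Rcor2, at 22.5 CPM (11.6 to 13.1). The 3 further marks were Htt-25Q 3 for Kmt2d at 66.6 CPM (39.3 to 43.4) and for Crebbp at 107 CPM (86.0 to 88.1), and Htt-72Q 1 for Kmt2d at 81.2 CPM (59.6 to 62.6).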

How the results depend on the processing

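The calls of Hdac9, Hdac5 and Jarid2 in both comparisons and of Phf1 against control were kept in 13 of 13 alternatives and without each of the 12 libraries in turn. Against control, 4 members were higher; the count was 2 with no filter, 2 in a fit of only the 2 groups, 1 at adjusted p under 0.01, and 1 to 5 when a library was left out. The 6 lower members became 3 at adjusted p under 0.01 and 4 to 7 when a library was left out. Against Htt-25Q, the 2 higher members became 4 without scaling beyond library totals, 1 with no filter, 0 at adjusted p under 0.01 and 0 to 4 when a library was left out. The 6 lower members became 3 with upper-quartile scaling, 3 without scaling, 3 with no filter, 3 at adjusted p under 0.01 and 3 to 7 when a library was left out. Kmt2a and Kmt2d against control turned to 0.62 and 0.70 without control 1, and to 0.67 and 0.73 without control 1 and Htt-72Q 3 together. That joint omission gave 5 higher and 6 lower members against control, and 3 and 6 against Htt-25Q. Over all genes, library totals alone gave 1931 higher and 1702 lower against control, beside 1389 and 2022. The causes were not tested.

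With preparation as a replicate block, 5 members were higher and 8 lower against control, and 2 and 5 against Htt-25Q; with 27 and 27_1 joined in the block, 10 were lower against control. The block by title number gave 4 and 6, and 3 and 6. Calls among the members included changes below 1.5-fold, down to -0.34 on the log2 scale for Hdac3 against Htt-25Q. The simulated 3.08% recovery of 1.5-fold changes cannot be set against these calls, because far fewer genes were called in the simulation.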
